A study of Mus musculus with 20 samples.

Results

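Transcripts of 9 genes of myelin and of the cells that make it were followed in the striatum of 20 mice: Mbp, Mobp, Mog, Mag, Cnp, Cldn11, Mal, Opalin and Nkx6-2. They were chosen by name for their known role in mature oligodendrocytes, with earlier results of these data known. All 9 were found, by Ensembl identifier, among the 39179 genes of each count table, and all 9 were among the 14792 genes with enough reads to be tested. The mice were adult males, about 6.5 months old, from generation 17 of a line bred for high home cage activity (High-Active) or of the randomly bred Control line, and both lines descended from one intercross of inbred strains. Each line was given an injection of saline or of 0.25 mg/kg amphetamine, and the striatum was taken 2 hours later. The 4 groups, High-Active amphetamine, High-Active saline, Control amphetamine and Control saline, held 5 mice each. Each line is 1 breeding population without a replicate line, so an effect of selection and one of drift cannot be told apart. By the sires and dams in the labels, 5 pairs of parents gave the 10 High-Active mice and 8 pairs the 10 Control mice, so that p-values measure the spread between these related mice.

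Oligodendrocytes wrap axons of the central nervous system in layers of membrane, and the compacted layers let action potentials jump between nodes of Ranvier. Bundles of myelinated fibers from the cortex cross the striatum, so that striatal RNA always holds oligodendrocyte transcripts. Mbp and Mobp encode basic proteins that hold the inner faces of the compact membrane together. Cnp marks the uncompacted cytoplasmic channels, Cldn11 forms the tight junctions between the layers, Mog lies on the outer surface and Mag faces the axon. Mal and Opalin encode small membrane proteins of mature oligodendrocytes, and Nkx6-2 encodes a homeodomain transcription factor of the same lineage. In bulk tissue, more oligodendrocytes and more RNA per oligodendrocyte cannot be told apart.

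The reads assigned to genes numbered 32388971 in the shallowest library and 53710713 in the deepest. The least abundant member was still deeply covered, since Opalin had at least 198 reads in each mouse and Mbp at least 66557. Levels below are counts scaled to a common library size (CPM), with TMM factors for the library sizes. Per kilobase of exon, the mean level over the 20 mice was highest for Mbp (320.1 CPM per kb ± 54.3, SD), followed by Mobp (105.1 ± 19.4). Mal (79.4 ± 11.0), Cnp (78.3 ± 12.6) and Cldn11 (74.8 ± 12.6) had nearly equal levels per kb, and their order was not fixed from mouse to mouse. Mal exceeded Cnp in 10 of 20 mice, and Cnp exceeded Cldn11 in 16 of 20. Below these came Mag (37.9 ± 6.67), Mog (28.3 ± 5.10), Nkx6-2 (8.77 ± 2.43) and Opalin (2.94 ± 0.894). Each of the other neighbouring pairs in this order, on the scale of CPM per kb, kept its order in 20 of 20 mice.

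Myelin genes were only in part higher in the striatum of High-Active mice. Of the 9 genes, 3 were upregulated relative to Control at an adjusted p under 0.1: Nkx6-2 (1.36-fold), Mobp (1.26-fold) and Mbp (1.20-fold). None was downregulated, and the median log2 fold change of the 9 was 0.21, against -0.0009 over all tested genes. In the same comparison 7.63% of the 14792 tested genes were upregulated and 6.90% downregulated. Because the 9 genes were chosen with earlier results of these data known, the contrast with these shares is a description only. With the counts of mice that share both parents added up, Mobp alone of the 9 passed (adjusted p = 0.0759). Over all genes 609 passed in that fit, against 2149 in the main test. Among the 6 genes that did not pass, Cnp, Cldn11, Mog and Mag had differences above 0, whereas Mal and Opalin had differences below 0. Adjusted p-values are from edgeR's quasi-likelihood test with Benjamini-Hochberg adjustment over all tested genes, and the line effect is the mean of the High-Active minus Control differences under saline and under amphetamine.

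**Figure D1:**
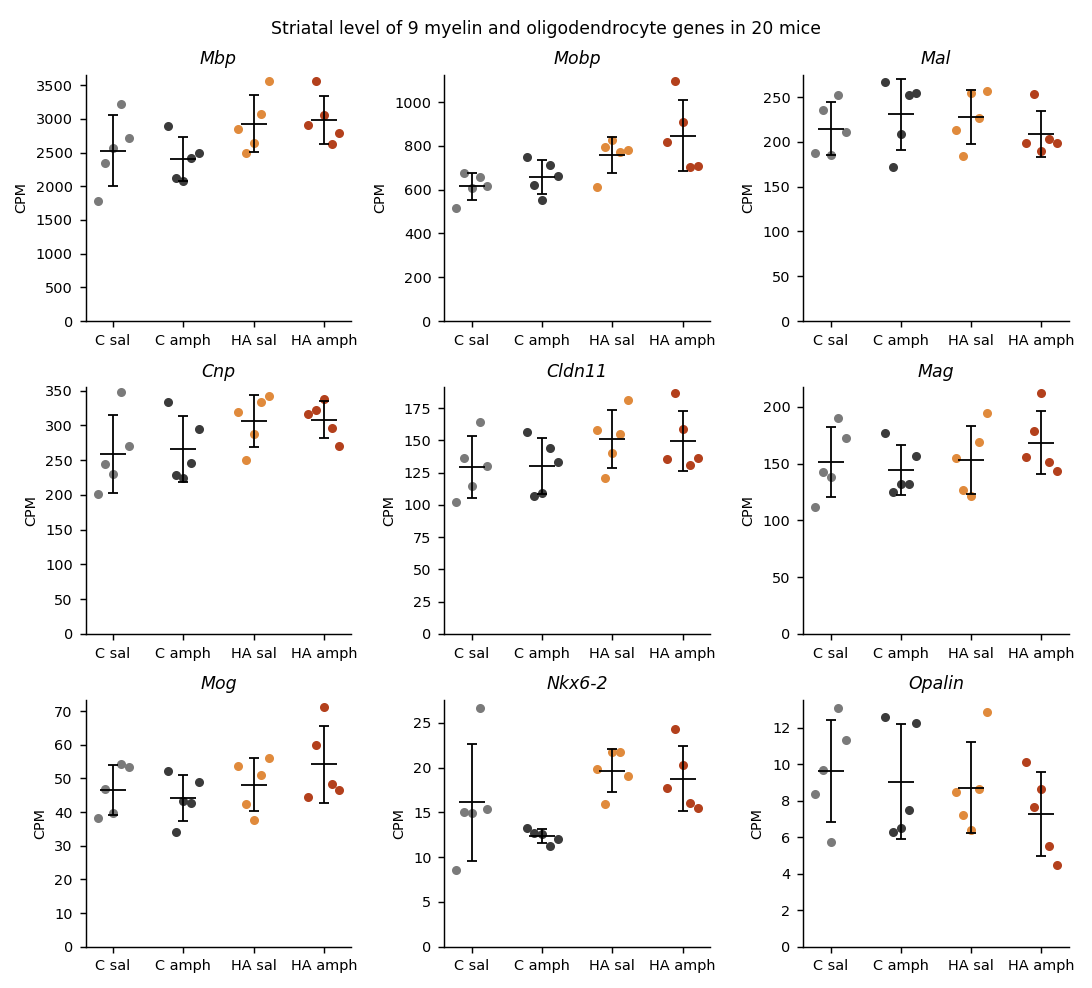
Level of each of the 9 genes in CPM (vertical axis, from 0) in the Control (C) and High-Active (HA) mice given saline (sal) or amphetamine (amph). Points are mice, and bars give the mean and SD of the 5 mice of a group. Control mice reach at most 748.3 CPM for Mobp, and 7 of 10 High-Active mice lie above that, whereas for Nkx6-2, Cnp, Mal and Opalin no High-Active mouse lies above every Control mouse.

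Mobp (ENSMUSG00000032517, chr9:120149707-120181484 on the forward strand of GRCm38) had the smallest p of the 9 genes between the lines. Control saline mice had 517.2, 607.1, 615.7, 656.6 and 676.3 CPM. Control amphetamine mice had 550.8, 621.9, 664.1, 711.3 and 748.3 CPM. The 10 Control mice of both treatments thus lay in 1 range with no gap between saline and amphetamine. High-Active saline mice had 614.3, 772.7, 782.1, 793.1 and 827.9 CPM, and High-Active amphetamine mice had 704.2, 706.1, 817.9, 910.5 and 1097 CPM. Of the 10 High-Active mice, 7 exceeded every Control mouse, 9 exceeded the Control median, and no Control mouse exceeded the High-Active median. The line means were 636.9 ± 69.9 in Control and 802.6 ± 131.2 in High-Active (SD, n = 10 mice each). The log2 fold change was 0.33 (SE 0.08, edgeR adjusted p = 0.0206). Mobp passed the threshold in each of the 20 fits that left out 1 mouse, with log2 fold changes between 0.28 and 0.36.

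Regulatory sequence is shown for the 2 members with the largest rise and for Opalin, the member with the lowest fold change, as the reference genome of C57BL/6J mice has it. The mice of both lines can carry other alleles here. Each sequence has 300 bases around the RefSeq start of the gene (GRCm38.p6), written 5′ to 3′ on the strand of the gene. Capitals mark the 6-base sequence ACAAAG or its reverse complement CTTTGT, a core that transcription factors of the Sox family bind, among them the oligodendrocyte factor Sox10. The letters were chosen after the line effects were known. Mobp lies at chr9:120149492-120149791 on the forward strand. Nkx6-2 lies at chr7:139582748-139583047 and Opalin at chr19:41077064-41077363, both on the reverse strand.
Mobp: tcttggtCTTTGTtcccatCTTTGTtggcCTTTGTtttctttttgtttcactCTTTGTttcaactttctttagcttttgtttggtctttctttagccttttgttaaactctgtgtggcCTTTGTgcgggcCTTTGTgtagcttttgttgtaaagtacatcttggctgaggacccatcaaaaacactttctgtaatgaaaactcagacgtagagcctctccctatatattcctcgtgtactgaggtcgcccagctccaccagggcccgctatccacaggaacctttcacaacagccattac
Nkx6-2: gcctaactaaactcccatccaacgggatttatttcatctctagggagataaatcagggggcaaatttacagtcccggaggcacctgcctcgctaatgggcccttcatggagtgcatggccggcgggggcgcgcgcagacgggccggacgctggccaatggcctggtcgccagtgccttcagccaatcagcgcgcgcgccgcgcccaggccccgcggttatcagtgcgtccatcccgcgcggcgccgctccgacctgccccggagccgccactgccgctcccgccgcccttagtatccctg
Opalin: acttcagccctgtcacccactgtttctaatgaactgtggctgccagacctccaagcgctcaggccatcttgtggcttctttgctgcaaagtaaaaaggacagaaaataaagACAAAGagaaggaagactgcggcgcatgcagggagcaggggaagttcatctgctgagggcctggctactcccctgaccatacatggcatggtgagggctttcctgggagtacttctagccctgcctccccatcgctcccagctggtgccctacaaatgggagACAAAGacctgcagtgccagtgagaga

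The Mobp window held 6 matches, all as CTTTGT on the strand of the gene and all in its upstream part. This was the highest number in any of the 32851 windows in the table, of which 18.7% held at least 1 match. Opalin, whose RNA was not higher in High-Active mice, held 2 matches, and Nkx6-2 held none. Among the other members, Cnp and Mag had 1 match in a window, whereas Mog, Mal and Cldn11 had none. The pair CTGGCAC and CTGGTAC, forms of the sequence bound by the myelin regulatory factor Myrf, were found in 5.01% and 2.24% of all windows on either strand. CTGGCAC was present for Mag, Cnp and Opalin, CTGGTAC for Mog, and neither for Mobp, Nkx6-2, Mal or Cldn11. Mbp was not in the table.

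Mbp (ENSMUSG00000041607, chr18:82475146-82585637 on the forward strand), the most abundant of the 9 on either scale, rose in High-Active mice with far more overlap between the lines. Control saline mice had 1784, 2352, 2570, 2722 and 3218 CPM, and Control amphetamine mice had 2082, 2119, 2413, 2494 and 2890 CPM. High-Active saline mice had 2489, 2638, 2856, 3077 and 3569 CPM, and High-Active amphetamine mice had 2628, 2795, 2904, 3060 and 3555 CPM. All 10 High-Active mice lay above the Control median, but only 2 exceeded the highest Control mouse. The lowest Control mouse (411) and the highest Control mouse (477) were both given saline. The line means were 2464 ± 417.8 and 2957 ± 369.1 CPM (SD, n = 10 mice each), with a log2 fold change of 0.26 (SE 0.09, edgeR adjusted p = 0.0887). This p was close to the threshold, and Mbp passed in only 7 of the 20 fits that left out 1 mouse. The adjusted p ranged from 0.0381, without Control saline mouse 477, to 0.166, without High-Active amphetamine mouse 415. Without a filter on low counts it was 0.123.

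Nkx6-2 (ENSMUSG00000041309, chr7:139579376-139582797 on the reverse strand), the only transcription factor among the 9, had the largest line difference on the log2 scale. Control saline mice had 8.59, 14.9, 15.0, 15.4 and 26.6 CPM, the widest spread of the 4 groups. Control amphetamine mice were tightly grouped at 11.2, 12.0, 12.6, 12.7 and 13.2 CPM. High-Active saline mice had 15.9, 19.1, 19.8, 21.7 and 21.7 CPM, and High-Active amphetamine mice had 15.5, 16.0, 17.7, 20.3 and 24.3 CPM. All 10 High-Active mice exceeded the Control median, yet none exceeded Control saline mouse 477, whose 26.6 CPM was the highest level of all 20 mice. The other 9 Control mice reached at most 15.43 CPM, and the lowest High-Active mouse had nearly the same level, 15.45 CPM. Mouse 477 is set aside here after the values were seen. The share of all genes that part the lines in this way was not computed. The log2 fold change was 0.44 (SE 0.14, edgeR adjusted p = 0.0564), and it was 0.57 (adjusted p = 0.00432) without mouse 477. Nkx6-2 passed in 19 of the 20 fits that left out 1 mouse and did not pass without High-Active amphetamine mouse 415 (log2 fold change 0.39, adjusted p = 0.110). The end of Nkx6-2 shares 277 bases with Inpp5a on the opposite strand. The strand setting of the read counting is not given in the sources used here, so it is not known how reads in that stretch were assigned or left out.

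Cnp and Cldn11, of the channels and tight junctions of myelin, had differences in the same direction that did not pass the threshold. Cnp (chr11:100574904-100591729) averaged 262.2 ± 48.8 CPM in Control and 307.5 ± 30.8 in High-Active mice (SD, n = 10 mice each), with a log2 fold change of 0.23 (SE 0.09, edgeR adjusted p = 0.130). All 10 High-Active mice exceeded the Control median for Cnp, but none exceeded the highest Control mouse. Cnp passed in 3 of the 20 fits that left out 1 mouse, those without Control mice 477 and 369 or High-Active mouse 483. It also passed with DESeq2 (adjusted p = 0.0875) and with a likelihood-ratio test (adjusted p = 0.00796). Cldn11 (chr3:31149920-31164324) averaged 129.7 ± 21.5 CPM in Control and 150.2 ± 21.7 in High-Active mice (SD, n = 10 mice each), with a log2 fold change of 0.21 (SE 0.10, edgeR adjusted p = 0.178). It passed without mouse 477 (adjusted p = 0.0854) and with the likelihood-ratio test (adjusted p = 0.0786). Cnp overlaps Dnajc7 on the opposite strand over 8912 bases, introns included.

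The genes of the outer and the inner myelin surface did not pass the threshold either. Mog (chr17:37010743-37023398), a surface antigen of myelin, averaged 45.4 ± 6.85 CPM in Control and 51.2 ± 9.69 in High-Active mice (SD, n = 10 mice each), with a log2 fold change of 0.17 (SE 0.10, edgeR adjusted p = 0.314). Mag (chr7:30899176-30914873), an adhesion protein facing the axon, averaged 147.9 ± 25.5 and 160.8 ± 28.5 CPM, with a log2 fold change of 0.12 (SE 0.11, adjusted p = 0.514). High-Active amphetamine mouse 487 had the highest level of both, 71.4 CPM for Mog and 212.2 for Mag. Control and High-Active mice otherwise overlapped over most of their range.

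Mal and Opalin did not share the direction of the other 7. Mal (chr2:127633226-127656695), which takes part in sorting of membrane proteins, had 185.3, 187.6, 211.4, 236.0 and 252.6 CPM in Control saline mice and 171.9, 208.7, 252.5, 254.2 and 266.5 CPM in Control amphetamine mice. It had 184.8, 213.3, 227.2, 254.6 and 257.3 CPM in High-Active saline mice and 190.0, 198.8, 198.9, 203.0 and 254.0 CPM in High-Active amphetamine mice. The lines covered the same range (log2 fold change -0.03, SE 0.09, edgeR adjusted p = 0.858). Opalin (chr19:41061710-41077113), a sialylated membrane glycoprotein of oligodendrocytes, had 5.76, 8.38, 9.67, 11.3 and 13.1 CPM in Control saline mice and 6.30, 6.53, 7.49, 12.3 and 12.6 CPM in Control amphetamine mice. It had 6.38, 7.24, 8.48, 8.65 and 12.9 CPM in High-Active saline mice and 4.48, 5.53, 7.64, 8.65 and 10.1 CPM in High-Active amphetamine mice. The 2 lowest levels of Opalin belonged to High-Active amphetamine mice, but the spread within groups exceeded the difference of the lines (log2 fold change -0.23, SE 0.19, edgeR adjusted p = 0.467).

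**Figure D2:**
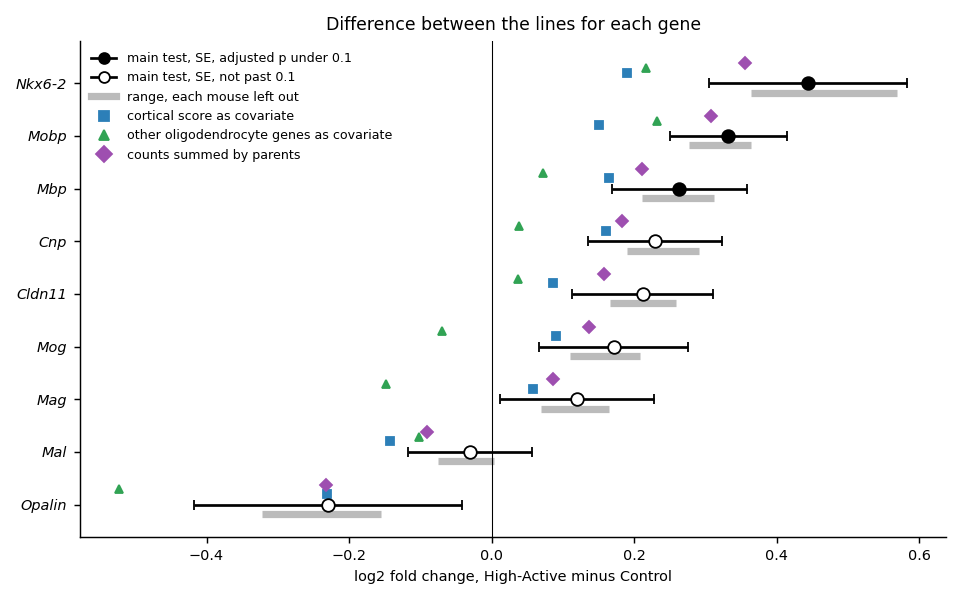
Log2 fold change of each gene, High-Active minus Control (horizontal axis), with the SE of the edgeR test (black circles and bars, filled where the adjusted p was under 0.1), the range over 20 fits that each left out 1 mouse (grey bar) and 3 alternatives (colored symbols). The 3 filled circles lie between 0.26 and 0.44, and Mal and Opalin lie at -0.03 and -0.23.

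The members rose and fell together from mouse to mouse within groups, apart from the difference of the lines. After the mean of its own group was taken from each mouse, the log2 CPM of 2 members correlated with a median Pearson r of 0.67 over the 36 pairs (n = 20 mice). The lowest was 0.36, for Opalin with Nkx6-2, and the highest 0.91, for Mog with Mag. Against the mean of the other 8, r was 0.93 for Cnp, 0.92 for Cldn11, 0.90 for Mbp and 0.89 for Mag. It was 0.66 for Nkx6-2 and 0.58 for Mobp, so that 2 of the 3 upregulated genes followed the others least closely. These values describe libraries that share a dissection and a depth per mouse. Single mice stood out by this shared variation. Control amphetamine mouse 369 had the highest level of its group for all 9 members, Control saline mouse 477 for 8 and High-Active saline mouse 886 for 7, and Control saline mouse 411 had the lowest for 7.

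Ratios between members within a mouse, for pairs chosen after their values were seen, show by how much the genes moved apart. The Mobp to Mal ratio of CPM was 2.89 ± 0.322 in Control mice, with a range of 2.60 to 3.62 (SD, n = 10). In High-Active mice it was 3.71 ± 0.630, with a range of 2.88 to 4.79, and 4 of 10 mice exceeded every Control mouse. The Mbp to Mal ratio was 11.2 ± 1.64 in Control and 13.6 ± 1.44 in High-Active mice, of which 5 exceeded every Control mouse. The Nkx6-2 to Opalin ratio was 1.60 ± 0.531 in Control and 2.56 ± 0.668 in High-Active mice, of which 4 exceeded every Control mouse. Measured against the mean of the other 8 members in log2 CPM, Mal was lower in High-Active than in Control mice by 0.22, and 6 of the 10 were below the whole Control range. For Mal these other 8 include the genes upregulated in High-Active mice, and Mal itself differed by only -0.03. On the scale of this deviation Opalin was shifted by -0.44, with 4 of 10 below the whole Control range, Nkx6-2 was 0.34 higher and Mobp 0.17 higher. Cnp was 0.08 higher, with 5 of 10 High-Active mice above the whole Control range, against 3 for Mobp and 1 for Nkx6-2.

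**Figure D3:**
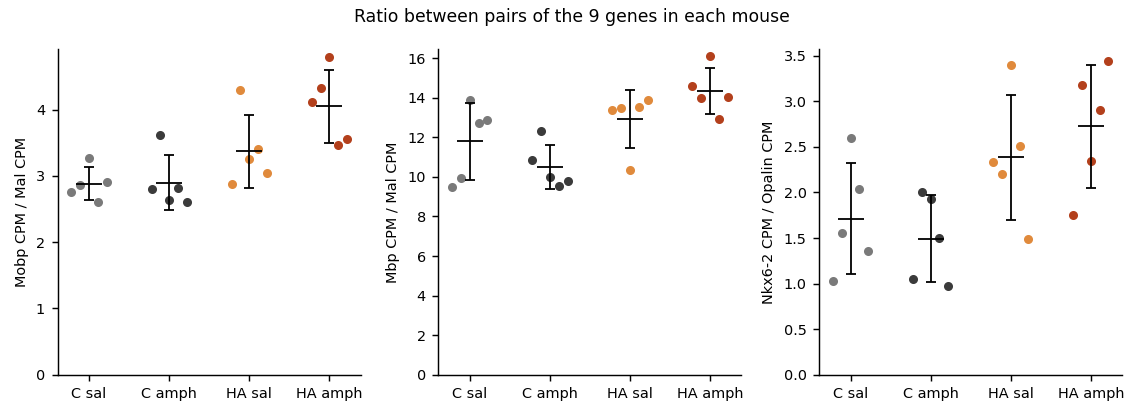
Ratio of the CPM of 2 members in each mouse (vertical axes, from 0) for Mobp to Mal, Mbp to Mal and Nkx6-2 to Opalin, in the Control (C) and High-Active (HA) mice given saline (sal) or amphetamine (amph). Points are mice, and bars give the mean and SD of the 5 mice of a group. The Mobp to Mal ratio averages 2.88 and 2.90 in the Control groups, 3.37 in High-Active saline and 4.05 in High-Active amphetamine mice.

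None of the 9 genes passed the test for an amphetamine effect 2 hours after the injection. With edgeR's quasi-likelihood test no member had an unadjusted p under 0.05, and the smallest adjusted p of a member was 0.517. No gene passed in the whole table either (0.0% of 14792), although 1844 genes had an unadjusted p under 0.05. DESeq2 called 391 genes and a likelihood-ratio test 458, but 0 members. The largest differences, amphetamine minus saline over both lines, were -0.23 for Nkx6-2 (SE 0.14), -0.18 for Opalin (SE 0.19) and 0.13 for Mobp (SE 0.08) on the log2 scale. The other 6 lay between -0.02 and 0.05. The cortical markers described further on were higher after amphetamine, and their part here was not tested. In Control mice alone Nkx6-2 averaged 16.1 ± 6.52 CPM after saline and 12.3 ± 0.770 after amphetamine (SD, n = 5 mice each). This log2 difference of -0.39 (SE 0.20, adjusted p = 0.784) includes saline mouse 477. In High-Active mice the means were 19.7 ± 2.37 and 18.8 ± 3.62 CPM. Without mouse 477 the difference of Nkx6-2 over both lines was -0.10.

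The response to amphetamine was not found to differ between the lines for any of the 9 genes. The interaction, the response of High-Active minus that of Control mice, passed for no member in edgeR's quasi-likelihood test, and no member had an unadjusted p under 0.05. Over all genes 0 passed (0.0%) and 440 had an unadjusted p under 0.05, and with DESeq2 and the likelihood-ratio test the counts were 0 and 6, with 0 members. The log2 values ran from -0.23 for Mal (SE 0.17) to 0.32 for Nkx6-2 (SE 0.28). Taken apart, the line difference in saline mice was 0.30 (SE 0.12) for Mobp, 0.28 (SE 0.20) for Nkx6-2 and 0.21 (SE 0.13) for Mbp on the log2 scale. In amphetamine mice it was 0.36 (SE 0.12), 0.60 (SE 0.20) and 0.32 (SE 0.13). With 5 mice per group, no member passed in either treatment, where edgeR called 3.74% and 1.30% of all genes. Before adjustment 1 member in saline mice and 3 in amphetamine mice had a p under 0.05, as did 17.4% and 12.6% of all genes. The 3 genes upregulated over all mice had differences above 0 within both treatments. The line effect is the mean of the differences in saline and in amphetamine mice, so this is no separate support for it.

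Other genes of the lineage were then read from lists chosen like the members with earlier results of these data known. Among 28 other genes of mature oligodendrocytes and myelin, 6 were upregulated in High-Active mice and 0 downregulated, with a median log2 fold change of 0.15 (25 of 28 above 0). Over all tested genes 7.63% were upregulated, 6.90% were downregulated and 49.67% had a difference above 0. The upregulated genes were Anln, a scaffold of myelin septins, Apod, a secreted lipid carrier, Gjb1, a gap junction protein, Ninj2, an adhesion protein, Hapln2, a link protein of the nodal matrix, and Gal3st1, the sulfatide-forming sulfotransferase. Anln rose from 57.7 ± 8.77 to 90.8 ± 12.6 CPM (SD, n = 10 mice each, log2 fold change 0.65, SE 0.09, edgeR adjusted p = 0.000347). Apod rose from 73.1 ± 12.9 to 129.3 ± 31.3 CPM (log2 fold change 0.82, adjusted p = 0.00102). Ninj2 was near the filter, with 0.439 CPM in Control and 1.14 in High-Active mice. It exceeded 1 CPM in 0 Control and 5 High-Active mice, so that it was tested only through the line where it was high, and its place among the 6 supports nothing.

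Of 11 transcription factors of the oligodendrocyte lineage, 6 were upregulated in High-Active mice and 0 downregulated, with a median of 0.21. All 11 had a difference above 0, against 49.67% of all tested genes, of which 7.63% were upregulated and 6.90% downregulated. Olig1, a determinant of oligodendrocyte maturation, rose from 79.7 ± 7.92 to 100.3 ± 13.2 CPM (SD, n = 10 mice each, log2 fold change 0.33, SE 0.07, edgeR adjusted p = 0.0111). Nkx2-2 (0.48), Zfp488 (0.74), Zfp24 (0.19), Sox8 (0.16) and Tcf7l2 (1.01) also rose on the log2 scale. Tcf7l2, an effector of Wnt signaling that is also strongly expressed in thalamus, varied widely, with 14.8 ± 9.29 CPM in High-Active mice. Of 9 tested genes of precursors and differentiating cells, 3 were upregulated and 0 downregulated, with a median of 0.21. These were Bcas1 (0.25), a marker of early myelinating cells, Ptprz1 (0.21), a receptor phosphatase of precursors and astrocytes, and Gpr17 (0.25), a receptor of the intermediate stage.

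Genes that supply and surround the myelin membrane were set beside all tested genes, of which 6.90% were lower and 7.63% higher in High-Active mice. Of 20 genes of cholesterol synthesis, the pathway that provides the main lipid of myelin but runs in all brain cells, 0 were upregulated and 2 downregulated, with a median log2 fold change of -0.08. Only 2 of these 20 genes had a difference above 0, against 49.67% of all tested genes. Cyp51 fell from 55.3 ± 3.29 to 43.9 ± 6.08 CPM (SD, n = 10 mice each, log2 fold change -0.33, edgeR adjusted p = 0.00647), and Lss from 39.4 ± 5.57 to 32.0 ± 2.33 CPM (-0.30, adjusted p = 0.00946). Of 10 genes of nodes and paranodes, only Scn8a, the main sodium channel of mature nodes, passed, and it was lower in High-Active mice (-0.18, adjusted p = 0.0916). No gene of these 5 lists passed for amphetamine or for the interaction with edgeR. For amphetamine 10 had an unadjusted p under 0.05, 6 of 20 cholesterol genes and 4 of 10 node and paranode genes, against 12.5% of all tested genes. In the other lists 0 did. For the interaction 1 of the 28 other mature oligodendrocyte genes did, against 2.97% of all tested genes, and 0 in the other lists. The median log2 difference, amphetamine minus saline, was 0.09 for the cholesterol genes and 0.07 for the node and paranode genes. Over all tested genes it was -0.007. The cortical markers described further on were higher after amphetamine as well, and their part in these 2 lists was not tested.

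**Figure D4:**
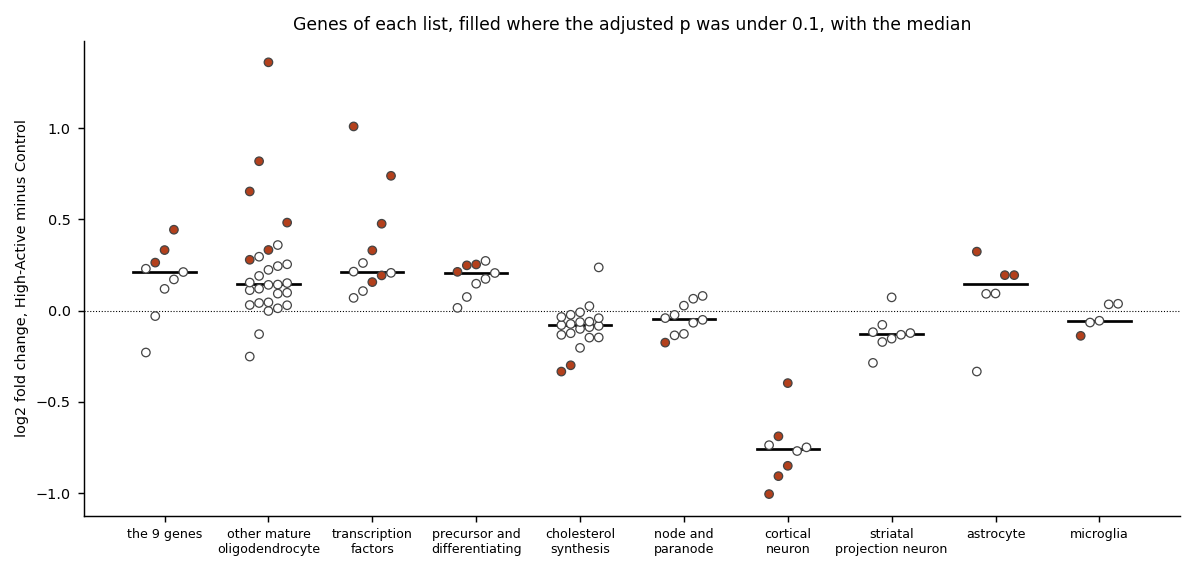
Log2 fold change, High-Active minus Control (vertical axis), of the 9 genes and of the genes of 9 lists (horizontal axis). Each point is a gene, filled where the edgeR adjusted p was under 0.1, and the line is the median of the list. Medians are 0.21, 0.15, 0.21 and 0.21 for the 9 genes and the 3 oligodendrocyte lists, and -0.76 for markers of cortical excitatory neurons.

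Markers of tissue beside the striatum moved with the line. The summed level of 8 markers of cortical excitatory neurons ranged from 345.6 to 937.8 CPM in Control mice and from 182.4 to 385.9 CPM in High-Active saline mice, with 244.3 to 1019 CPM in High-Active amphetamine mice. Of these 8 markers, 5 were downregulated in High-Active mice and 0 upregulated (median log2 fold change -0.76), and none was at 0 in any group. Over all tested genes 6.90% were downregulated and 7.63% upregulated. The same cortical markers were higher after amphetamine, with a median of 1.00 on the log2 scale. Of the 8, 7 had an unadjusted p under 0.05, against 12.5% of all tested genes. Of 8 markers of striatal projection neurons, which define the labeled tissue, 0 passed between the lines (median -0.13), and their summed level was 3565 to 5676 CPM. Only 1 of these 8 had a line difference above 0, against 49.67% of all tested genes. Of 6 astrocyte markers, 3 were upregulated, and of 3 ependymal markers, 2 were. Choroid plexus markers summed to between 4.64 and 855.2 CPM, and 0 of 4 passed. None of 4 endothelial markers passed (median 0.04). None of 3 septal markers passed either, but all 3 had differences above 0, Zic1 of 0.66 (SE 0.28, adjusted p = 0.139), Zic2 of 0.65 (SE 0.28) and Prdm16 of 0.44 (SE 0.25) on the log2 scale. The septal sum was 81.7 to 160.7 CPM in High-Active saline and 44.9 to 86.2 CPM in Control saline mice, and its part in the line differences of the 9 genes was not tested. Of 5 microglial markers, 1 was downregulated. The 3 Schwann cell markers, of the peripheral cells that also make myelin, summed to at most 1.47 CPM and were not tested.

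With the mean log2 CPM of the cortical markers as a covariate, none of the 9 genes passed between the lines, and 2.24% of all genes did. The log2 fold change was then 0.15 for Mobp (edgeR adjusted p = 0.434), 0.19 for Nkx6-2 (adjusted p = 0.603) and 0.17 for Mbp (adjusted p = 0.577). The 3 estimates stayed above 0 and were 37.3% (Mbp), 54.6% (Mobp) and 57.1% (Nkx6-2) smaller than without the covariate. Of the other mature oligodendrocyte genes, Anln (0.49, adjusted p = 0.0123) and Apod (0.61, adjusted p = 0.0363) still passed. None of the transcription factors or precursor genes did, although Zfp488 (0.60), Bcas1 (0.21), Gpr17 (0.19), Zfp24 (0.14) and Sox8 (0.12) kept most of their log2 difference. Olig1 went to 0.21, Nkx2-2 to 0.28, Ptprz1 to 0.10 and Tcf7l2 to 0.39. In the cholesterol list Cyp51 (-0.27, adjusted p = 0.125) and Lss (-0.25, adjusted p = 0.155) kept most of their difference but no longer passed, whereas Hsd17b7 passed as higher in High-Active mice (0.41, adjusted p = 0.0399). The score itself differed with the line, since 4 of the 5 lowest scores belonged to High-Active mice, 3 of them given saline. The part of cortical tissue in the line differences was not tested beyond this fit.

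**Figure D5:**
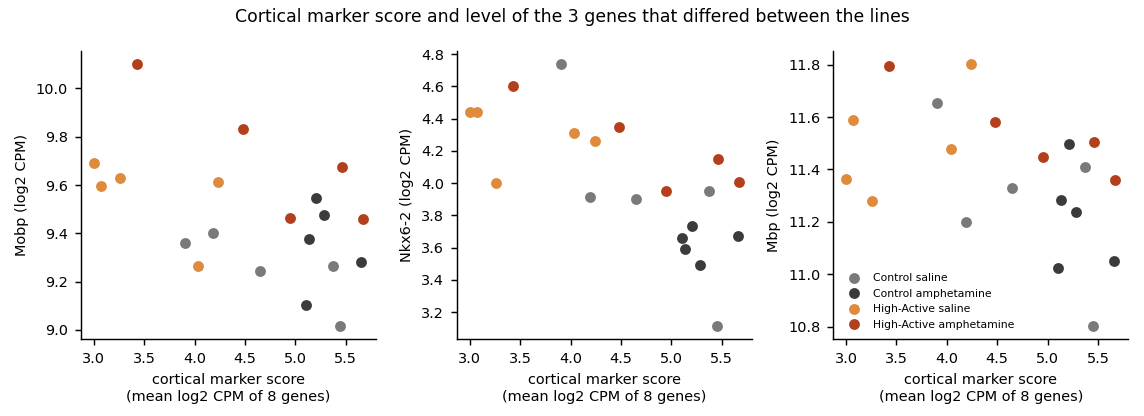
Level of Mobp, Nkx6-2 and Mbp in log2 CPM (vertical axes) against the cortical marker score, the mean log2 CPM of 8 genes (horizontal axes), for each of the 20 mice, colored by group. Control mice have scores of 3.91 to 5.66 and High-Active mice of 3.01 to 5.67. High-Active amphetamine mouse 415, with the highest Mobp level, has a score of 3.43.

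A covariate of the lineage itself, the mean log2 CPM of the 28 other mature oligodendrocyte genes, was added after the values were seen. This score averaged 4.87 ± 0.191 in Control and 5.08 ± 0.171 in High-Active mice (SD, n = 10 mice each). At equal score no member passed between the lines, where 4.62% of all genes did. The log2 fold change of Mbp was 0.07, of Cnp 0.04 and of Cldn11 0.04. Mobp (0.23, edgeR adjusted p = 0.187) and Nkx6-2 (0.22, adjusted p = 0.378) kept more of their difference. Mag (-0.15, adjusted p = 0.138) and Mog (-0.07) changed sign, and Opalin lay at -0.52 (adjusted p = 0.137). The score is made of genes that vary with the members and were higher in High-Active mice, so that values near 0 follow in part from its construction. It also holds Ninj2, which was tested only through the High-Active line and had a log2 fold change of 1.36. Ninj2 thus adds to the difference of the score between the lines, and a score without it was not run.

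Genes outside the members that varied most like them were sought over all tested genes, by the correlation with the mean of the 9 standardized levels within groups (n = 20 mice). The closest were Tprn (Pearson r 0.93), Sirt2 (0.92), a deacetylase of myelin sheaths, Plekhb1 (0.89), Rhog (0.89), a small GTPase, and Ndrg1 (0.87), a stress-responsive gene of myelinating cells. Sept4 (0.87), a septin, Plekhh1 (0.87), Tspan2 (0.86), a tetraspanin of oligodendrocytes, Ttyh2 (0.85) and Plekhg3 (0.85) followed. All 10 had line differences above 0, from 0.12 for Sept4 to 0.35 for Plekhh1 on the log2 scale, against 49.67% of all tested genes above 0. Of the 10, Plekhb1, Ndrg1, Plekhh1 and Ttyh2 passed the threshold as higher in High-Active mice, as did 7.63% of all tested genes. The 10 were picked for varying with the members in these same mice, so they are not separate results. The contrasts with all tested genes are a description only.

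Genes next to the 3 upregulated members on the chromosome were read as well, 5 tested genes on each side. Around Mbp 0 of 10 differed between the lines, around Mobp 2 of 10 and around Nkx6-2 4 of 10, against 14.5% of all tested genes. Near Mobp, Entpd3 was higher (log2 fold change 0.30, edgeR adjusted p = 0.0474) and Myrip lower (-0.18, adjusted p = 0.0773) in High-Active mice. Near Nkx6-2, Kndc1 (0.49, adjusted p = 0.0112) and Cfap46 (0.36, adjusted p = 0.0414) were higher, whereas Lrrc27 (-0.39, adjusted p = 0.0472) and Stk32c (-0.21, adjusted p = 0.0679) were lower. These 10 neighbours of Nkx6-2 span 0.907 Mb, and their changes went in both directions.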

How the data were processed

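Striatal RNA of 20 mice was sequenced from stranded paired-end libraries. The authors aligned reads to GRCm38 with TopHat2 2.0.10 and assigned them to Ensembl genes using HTSeq 0.6.1, and the deposited values are raw counts per gene and mouse. Reads without a gene (8.17% to 9.55%), of several genes or not unique were left out. Genes over 1 CPM in at least 3 mice were normalized by TMM and tested with edgeR 4.0.16 (R 4.3.3) in a model of 4 group means, with Benjamini-Hochberg adjustment within each effect at 0.1. Alternatives used DESeq2 1.42.0, limma 3.58.1 and those named in the closing section. Of the fits, only the quasi-likelihood test of the line effect was tried on simulated counts, drawn for mice without families. The other effects and the alternatives were not. Log2 CPM used a prior count of 2. Positions are those of GENCODE for GRCm38, and promoter windows, present for 8 of 9 members, are from RefSeq. Named genes were all members, up to 6 of each list past the threshold with the smallest p, the 10 most alike genes and 5 neighbours on each side. Members and lists were chosen with earlier results of these data known.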

Additional observations from a re-analysis of the deposited data

Results flagged for a closer look

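Each of the 9 genes was checked in each of the 4 groups for a mouse that stood apart from the other 4, by the gap to its nearest neighbour as a share of the range of the group (Dixon's criterion on log2 CPM). Of these 36 checks, 2 found such a mouse, and chance alone gives about 1 in 20. For Mobp, High-Active saline mouse 197 lay low at 614.3 CPM, while the other 4 mice of its group had 772.7 to 827.9 CPM. For Mal, High-Active amphetamine mouse 415 lay high at 254.0 CPM, while the other 4 had 190.0 to 203.0 CPM.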

How the results depend on the processing

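Of the 9 genes, 3 passed between the lines in the test reported, and the number was 3 with the RLE normalization, with at least 5 mice over 1 CPM and with parents as a random block, 2 without a filter and 4 with DESeq2. It was 5 with a likelihood-ratio test and robust dispersions, 1 (Mobp) after summing the counts of mice with common parents, and 0 with the cortical score as a covariate, with the score of other oligodendrocyte genes as a covariate (added after the data were seen), for the line difference within saline mice and for that within amphetamine mice. The last 2 are contrasts of the same fit, each between 5 and 5 mice, with larger standard errors (0.13 in both for Mbp, against 0.09 over both treatments), and the cause of the other changes was not tested. The number called over all genes moved as well. It was 2149 in the test reported, 1893 without a filter, 2810 with DESeq2 and 2269 with the likelihood-ratio test. After summing by parents it was 609, with the cortical score 331 and with the oligodendrocyte score 683. Within saline and within amphetamine mice it was 553 and 193. Leaving out each mouse gave 1 (without High-Active amphetamine mouse 415) to 5 (without Control saline mouse 477) genes. For amphetamine and for the interaction the number was 0 in every fit run.

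Some line differences changed sign, namely Mog (-0.069) and Mag (-0.15) with the score of other oligodendrocyte genes and Mal (0.084) in saline mice. The interaction of Mobp was -0.0070 with the likelihood-ratio test. With each mouse left out, values near 0 also crossed it. The line difference of Mal ran from -0.076 to 0.0032. Amphetamine differences ran from -0.070 to 0.031 for Mbp, -0.0087 to 0.089 for Mog, -0.011 to 0.085 for Mag, -0.022 to 0.090 for Cnp, -0.049 to 0.036 for Mal and -0.050 to 0.049 for Cldn11. Interactions ran from -0.051 to 0.12 for Mobp, -0.15 to 0.072 for Cnp, -0.12 to 0.057 for Cldn11 and -0.32 to 0.015 for Opalin. None of these passed the threshold. The numbers of the mice pair none of them. Some mice of the same parents were given different treatments, and the fit with parents as a random block makes use of them. That fit called 0 members for amphetamine and 0 for the interaction. Depth did not limit these genes, but 5 mice per group left standard errors of 0.16 to 0.38 on the log2 scale for the interaction.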
